A study of Mus musculus and Homo sapiens with 33 samples.

Results

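The clustered, replication-dependent histone genes of KPL cells, a mouse lung adenocarcinoma line, were followed in polyadenylated RNA after 4-hydroxytamoxifen (4-OHT). Members were all genes of the count matrix whose symbol begins with Hist1h, Hist2h, Hist3h or Hist4h, which gave 70 of 38924 Ensembl IDs. They comprised 6 genes of the linker histone H1, 20 of H2A, 19 of H2B, 12 of H3 and 13 of H4. The treated libraries were 3 of KPL cells that received 4-OHT for 72 hours, at a dose that the labels write as 10 nm, to delete Lin9. The control libraries were 3 of KPL cells labelled ctrl and EtOH. Both groups were the same line, and the labels name neither the promoter that drives the recombinase nor separate cultures, so the p-values below rest only on how far these libraries differ within a group, and that may be technical variation. No RNA library of cells that got 4-OHT without losing Lin9 was analysed here, so the agent and the deletion cannot be told apart. The remaining 27 of the 33 samples of the series were ChIP-seq samples and were not analysed here.

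Core histones H2A, H2B, H3 and H4 form the octamer around which DNA is wrapped, and H1 binds the linker DNA between nucleosomes. Replication-dependent histone genes lie in clusters, are transcribed mainly in S phase, and their mRNAs normally end in a stem-loop bound by SLBP rather than in a poly(A) tail. Their transcription and end formation take place with NPAT and FLASH (Casp8ap2). LIN9 is a subunit of MuvB, the core of the DREAM and B-MYB complexes at cell cycle promoters, and its partner LIN54 binds the CHR element. Since the labels state poly(A) RNA, the counts cover only the transcripts that this selection retained and are not a measure of total histone mRNA. In bulk RNA, fewer cells in S phase and less histone RNA per cell cannot be told apart.

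RefSeq places Hist1 genes on chromosome 13, Hist2 on chromosome 3, Hist3 on chromosome 11 and Hist4 on chromosome 6, with 56, 10, 3 and 1 members. In Hist1, many H2A and H2B genes start back to back and share the DNA between them. The windows of 4 members whose results are described below are shown first, taken from RefSeq (GRCm38.p6), written 5′ to 3′ on the strand of the gene and ending just before its annotated start. Capitals mark every match, on either strand, to 4 motifs. The first, CCAAT, is bound by NF-Y and reads ATTGG on the opposite strand. The next, TATAAA, is a core promoter box upstream of many starts. The octamer ATTTGCAT, which reads ATGCAAAT on the opposite strand, is bound by the POU factor Oct-1. The last is the CHR, spelled TTTGAA in one form and in the other TTCGAA. Hist1h1c, an H1 gene, lies at chr13:23738557-23738806 on the plus strand, and Hist1h4i, an H4 gene, at chr13:22041363-22041612 on the minus strand. Hist1h2ac at chr13:23683960-23684198 on the minus strand and Hist1h2ao at chr13:21810200-21810366 on the plus strand are H2A genes. Their windows are the whole gaps of 239 and 167 bases to the H2B genes Hist1h2bc and Hist1h2bq.
Hist1h1c: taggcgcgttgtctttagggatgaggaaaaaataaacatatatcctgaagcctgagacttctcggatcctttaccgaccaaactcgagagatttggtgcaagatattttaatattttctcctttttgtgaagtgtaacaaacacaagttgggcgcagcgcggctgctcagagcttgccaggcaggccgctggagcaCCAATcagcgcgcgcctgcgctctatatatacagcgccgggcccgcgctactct
Hist1h2ac: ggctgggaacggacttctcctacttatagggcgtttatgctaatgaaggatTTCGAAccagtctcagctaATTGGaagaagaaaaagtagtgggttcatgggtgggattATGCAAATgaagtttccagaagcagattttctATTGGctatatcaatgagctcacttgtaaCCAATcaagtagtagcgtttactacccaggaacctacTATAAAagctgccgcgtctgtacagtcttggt
Hist1h2ao: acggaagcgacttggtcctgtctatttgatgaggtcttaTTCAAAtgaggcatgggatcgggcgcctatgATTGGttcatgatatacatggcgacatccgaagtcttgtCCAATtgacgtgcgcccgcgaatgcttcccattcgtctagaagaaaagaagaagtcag
Hist1h4i: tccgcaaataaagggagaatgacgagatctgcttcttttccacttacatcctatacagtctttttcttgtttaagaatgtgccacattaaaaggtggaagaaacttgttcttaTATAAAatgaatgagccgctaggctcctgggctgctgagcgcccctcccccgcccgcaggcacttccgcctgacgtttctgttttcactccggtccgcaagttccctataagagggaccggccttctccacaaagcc

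A window of 250 bases before the start was present for 62 of the 70 members, as 63 windows, and was set against 32851 windows of all genes. Unlike the printed windows, these were not shortened at a neighbouring gene, so windows of closely spaced genes can include sequence of the neighbour. CCAAT stood in 82.5% of member windows and in 33.8% of all windows. It was found in 6 of 6 H1, 18 of 18 H2A, 17 of 17 H2B and 8 of 10 H3 windows, but in 3 of 12 H4 windows. The octamer occurred in 22.2% of member windows against 1.6% of all windows, with 7 of 18 H2A and 7 of 17 H2B windows and no window of H1, H3 or H4. TATAAA occurred in 46.0% of member windows and 12.4% of all windows. A CHR match was present in 44.4% of member windows against 17.1% of all windows, in 10 of 18 H2A, 12 of 17 H2B, 2 of 6 H1, 2 of 10 H3 and 2 of 12 H4 windows. The CRE, TGACGTCA, was searched as well and occurred in 6.35% of member windows and 1.55% of all windows. Windows of back-to-back genes overlap and are not independent, and a match is a description of letters, not of binding.

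Library totals lay between 5859826 and 5913942 reads, so 3 reads, the most that a count of 0 allows, corresponded to 0.506 to 0.515 CPM, the reads scaled to the TMM-corrected library total. That limit covers counting error only. Lin9, the targeted gene, had 108, 107 and 101 reads in 4-OHT libraries and 156, 124 and 159 in control libraries. Its log2 fold change was -0.49 (SE 0.11, edgeR quasi-likelihood adjusted p = 0.0011), although the labels do not say which exons were deleted. Of 8 epithelial markers, 6 reached 1 CPM, while the surfactant genes Sftpc and Sftpb stayed at or under 3 reads in every library. The epithelial markers summed to 5460 to 5620 CPM in 4-OHT libraries and 5490 to 5560 CPM in control libraries, and among them Epcam fell by 0.38 on the log2 scale (edgeR adjusted p = 4.44e-12) and Cdh1 by 0.14 (edgeR adjusted p = 0.00105). Leukocyte markers summed to 1.87 to 3.21 CPM in 4-OHT libraries and 1.2 to 4.79 CPM in control libraries, and endothelial markers to 2.2 to 4.05 CPM and 2.4 to 2.92 CPM. The 5 mesenchymal markers, nearly all Vim (log2 fold change 0.15, edgeR adjusted p = 1.19e-05), summed to 3070 to 3120 CPM in 4-OHT libraries and 2780 to 2830 CPM in control libraries. Their part in the results below was not tested.

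Reads were few for many members. For 8 of the 70 no read was counted in any library: the H2A genes Hist1h2aa, Hist2h2aa1, Hist2h2aa2, Hist2h2ab and Hist3h2a, the H3 genes Hist2h3b and Hist2h3c1, and the H4 gene Hist1h4b. A further 4 members had 1 to 9 reads summed over the 6 libraries and 17 had 10 to 59. The low-count filter kept 41 members, each with at least 66 summed reads, and left out 29, each with at most 54. The 41 were 3 of 6 H1, 13 of 20 H2A, 16 of 19 H2B, 0 of 12 H3 and 9 of 13 H4 genes, so the tests below do not reach H3. Compared per kb of gene span, over members whose span is under 1000 bases, those with 0 reads included, the median level was 49.2 CPM per kb for H2A (19 genes), 9.18 for H2B (13 genes), 5.4 for H4 (13 genes), 1.54 for H3 (12 genes) and 1.45 for H1 (6 genes). Without the members that had 0 reads it was 63.1 for H2A (14 genes), 5.88 for H4 (12 genes) and 1.55 for H3 (10 genes). The highest level per kb in each of these classes was 128 for Hist1h2ap, 25.8 for Hist1h2bg, 21.0 for Hist1h4i, 2.06 for Hist2h3c2 and 34.6 for Hist1h1c. How reads that match several copies were counted is unstated, and counting them for each copy would raise these levels and the class sums.

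One library stood apart within its own group. The 20 H2A genes together had 2675, 3168 and 2760 reads in 4-OHT libraries against 686, 2486 and 3443 in control libraries. Control replicate 1 thus held 0.231 times the mean H2A level of control replicates 2 and 3, while control replicate 3 exceeded all 3 of the 4-OHT libraries. Other classes did not show this gap: H2B genes summed to 837, 979 and 821 reads after 4-OHT and to 726, 827 and 773 in controls. H1 genes summed to 198, 198 and 191 reads in 4-OHT libraries, all above the 144, 148 and 169 reads in control libraries. Hist1h1c alone gave 502 of the 587 H1 reads after 4-OHT and 381 of the 461 in controls. H4 genes summed to 181, 244 and 222 reads after 4-OHT and to 198, 147 and 137 in controls, where replicate 1 was the highest control. H3 genes summed to 24, 43 and 42 reads in 4-OHT libraries, all below the 62, 62 and 53 reads in control libraries.

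**Figure D1:**
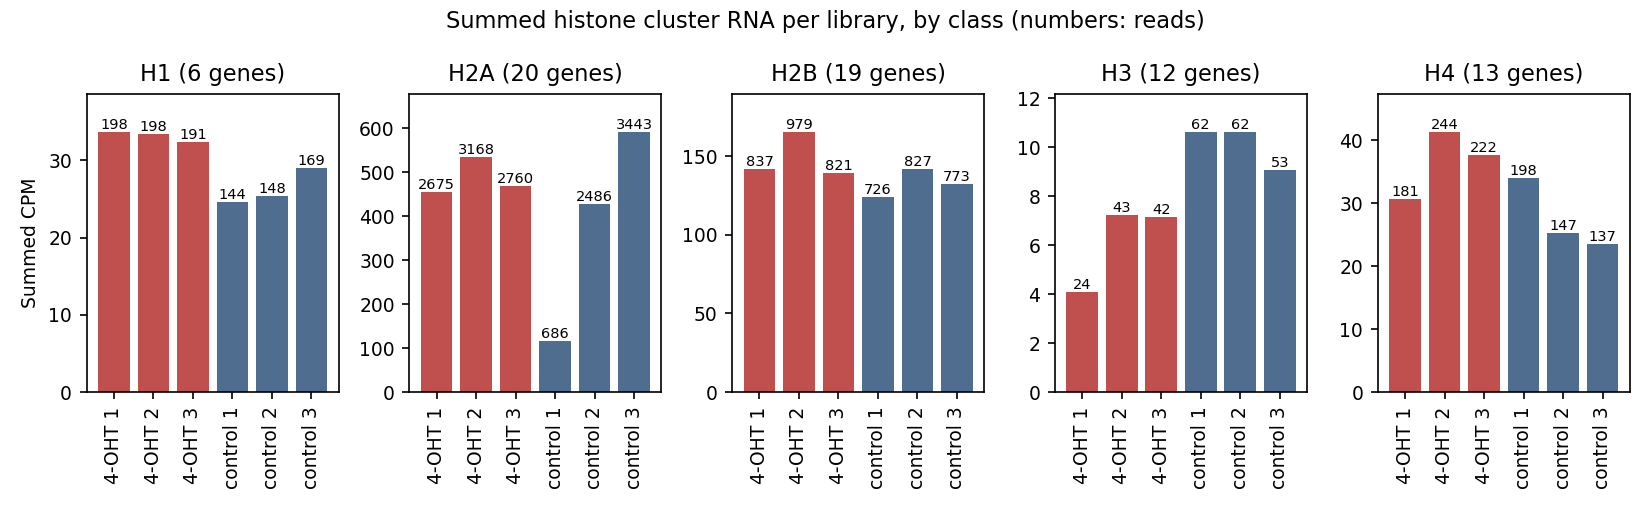
Summed CPM of all members of each histone class (y axis, a separate scale per class) in each of the 6 libraries (x axis; red, 4-OHT; blue, control), with the summed reads above each bar. H2A stands at 686 reads in control replicate 1 against 2486 to 3443 in the other libraries. H1, whose reads are mostly those of Hist1h1c, is higher and H3 lower in all 3 of the 4-OHT libraries than in any control library.

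Among the 41 members tested, 2 were called higher in 4-OHT cells and 0 lower by edgeR's quasi-likelihood test at adjusted p under 0.05. Over all 13355 genes tested, 4.61% were called higher and 5.17% lower, so 2 of 41 is close to the background. An unadjusted p under 0.05 was reached by 6 of the 41, against 21.2% of all genes. The log2 fold change was above 0 for 38 of the 41, against 50.2% of all genes, with a median of 0.31 beside 0.0 over all genes. Without control replicate 1 the members' median was 0.07, with 25 of 43 tested members above 0. Reads may be split between copies of a class or counted for several of them, so the 41 may not be 41 separate measurements. Members with 4-OHT libraries wholly above control libraries numbered 4 (all genes, 12.1%), namely Hist1h1c, Hist1h2bc, Hist2h2be and Hist1h4f, and 1 lay wholly below (all genes, 12.2%), namely Hist1h1e.

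**Figure D2:**
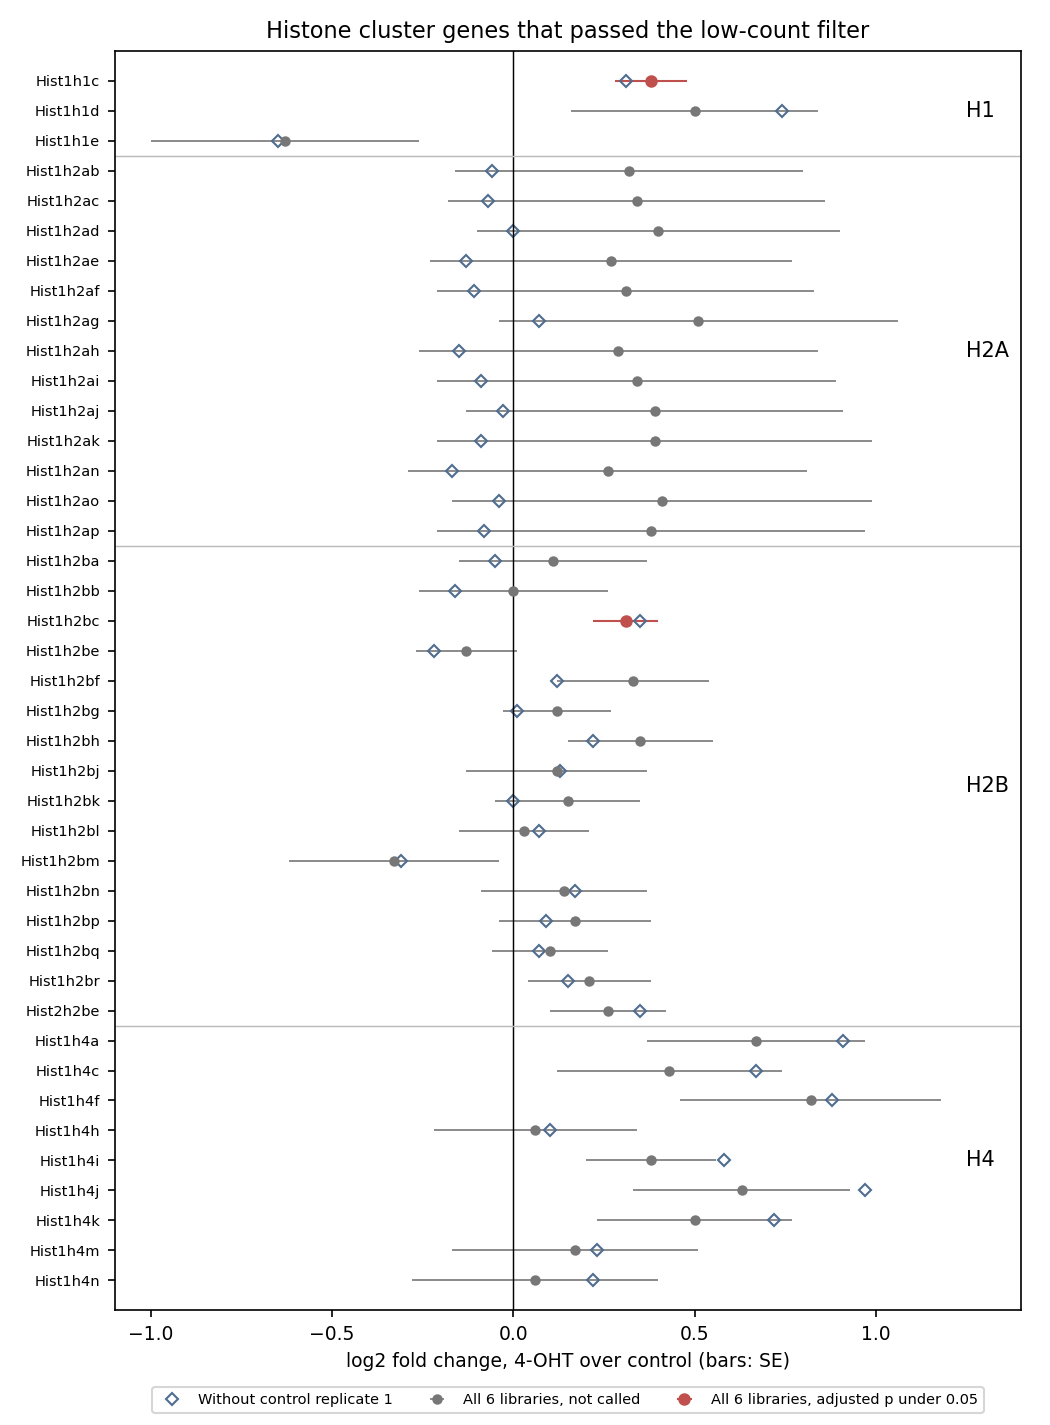
Log2 fold change of 4-OHT over control (x axis) for the 41 members that passed the filter (y axis, by class); filled points with SE bars use all 6 libraries, red marks an adjusted p under 0.05, and open diamonds leave out control replicate 1. Without that library the 13 H2A diamonds lie between -0.17 and 0.07, whereas the H4 diamonds lie between 0.10 and 0.97.

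Of 3 tested linker histone genes, 1 rose and 0 fell, where 4.61% of all genes rose. Hist1h1c, which encodes the somatic linker histone H1.2, had 168, 169 and 165 reads in 4-OHT libraries against 114, 125 and 142 in control libraries. The groups did not overlap, and its level was 28.3 ± 0.287 CPM after 4-OHT and 21.8 ± 2.43 CPM in controls (SD, n = 3 each). Hist1h1c rose by 0.38 on the log2 scale (SE 0.10, edgeR quasi-likelihood adjusted p = 0.00803), but the adjusted p was 0.105 without control replicate 1 and 0.12 with DESeq2. Hist1h1e, which encodes H1.4, had 12, 9 and 5 reads in 4-OHT libraries and 13, 12 and 15 in control libraries. Its log2 fold change of -0.63 did not pass the test (SE 0.37, edgeR adjusted p = 0.332). Hist1h1d, which encodes H1.3, had 14, 17 and 15 reads after 4-OHT and 14, 8 and 10 in controls, with overlapping groups (log2 fold change 0.50, edgeR adjusted p = 0.424). The other 3 H1 genes were near the limit of detection. Hist1h1b had 2, 0 and 5 reads in 4-OHT libraries against 2, 3 and 2 in controls, Hist1h1a had 2, 3 and 0 against none, and the testis linker histone Hist1h1t had 1 read in each group.

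H2A genes gave the most reads and the widest spread between control libraries. All 13 tested H2A genes had log2 fold changes between 0.26 and 0.51, and none passed the test, with 0 at an unadjusted p under 0.05 and a lowest edgeR adjusted p of 0.711. Quasi-likelihood without robust estimation, added after the data were seen, gave 5 at an unadjusted p under 0.05 and a lowest edgeR adjusted p of 0.0636. Limma-voom gave 13 at an unadjusted p under 0.05 and called 4 higher (all genes, 4.28%). Its H2A median log2 fold change was 0.64, against 0.34 in the main fit. DESeq2 gave 0 at an unadjusted p under 0.05. Hist1h2ao, the member with the most reads, had 383, 423 and 383 reads in 4-OHT libraries against 77, 326 and 479 in control libraries. The 3 values after 4-OHT lay close together, inside the range of the controls, and the log2 fold change was 0.41 (SE 0.58, edgeR adjusted p = 0.788). Hist1h2ap had 369, 434 and 360 reads in 4-OHT libraries and 75, 334 and 473 in controls. Hist1h2ag, with the highest fold change of the class, had 271, 324 and 291 reads after 4-OHT and 57, 242 and 315 in controls (log2 fold change 0.51, SE 0.55, edgeR adjusted p = 0.711). Hist1h2ak, the tested H2A gene with the fewest reads, had 65, 74 and 71 reads against 11, 66 and 81. The other 9, Hist1h2ab, Hist1h2ac, Hist1h2ad, Hist1h2ae, Hist1h2af, Hist1h2ah, Hist1h2ai, Hist1h2aj and Hist1h2an, had their lowest read count in control replicate 1 and their highest in control replicate 3. RefSeq annotates Hist1h2aj, which is also among the neighbouring pairs below, as a pseudogene.

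Without control replicate 1 the H2A median log2 fold change was -0.08, with 12 of 13 genes below or at 0, and without control replicate 3 it was 0.84 with 13 of 13 above 0. Neither setting gave a call, with lowest edgeR adjusted p-values of 0.471 and 0.505. Summed H2A RNA averaged 485 ± 43 CPM after 4-OHT and 378 ± 240 CPM in controls (SD, n = 3 each), a ratio of 1.28 that became 0.955 against control replicates 2 and 3. Among reads of the 13 tested H2A genes, shares of single genes were similar in 5 libraries and departed for some genes in control replicate 1. Hist1h2ao made up 14.3%, 13.4% and 13.9% of these reads in 4-OHT libraries and 11.5%, 13.2% and 13.9% in control libraries. Hist1h2ak made up 2.44%, 2.34% and 2.58% after 4-OHT and 1.65%, 2.67% and 2.36% in controls, and Hist1h2ab 5.47%, 5.98% and 5.6% against 7.5%, 5.66% and 5.7%. In control replicate 1 these shares rest on 77, 11 and 50 of 667 reads in that order. Whether the departures exceed counting error was not tested. H2A genes are near-identical copies whose reads may be split between them or counted for several of them. How such reads were counted is not given in the sources used here, so the 13 are not 13 separate measurements.

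The low H2A level of control replicate 1 was compared with the other genes of the same library. When the 13355 tested genes were ranked by the log2 ratio of control replicate 1 over the mean of control replicates 2 and 3, with 1 CPM added, the 13 H2A genes stood within the 14 lowest places, at -2.34 to -1.64. The next gene followed at -1.48, and the median of all genes was 0.0. Class medians on the same scale were -0.04 for H1, -0.21 for H2B and 0.44 for H4. The 2 H2A members with reads that did not pass the filter did not share the gap. Hist1h2al, annotated as a transcribed pseudogene, had 3, 3 and 5 reads in 4-OHT libraries against 11, 8 and 4 in control libraries, and Hist2h2ac had 3, 4 and 3 against 8, 3 and 3.

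The gap also separated genes that share a promoter region. In 11 pairs of neighbouring H2A and H2B genes with both genes tested, 163 to 267 bases apart, the H2A gene stood in control replicate 1 at 0.149 to 0.277 times its mean CPM in control replicates 2 and 3. Its H2B neighbour stood at 0.593 to 1.08 times. The pair whose shared DNA is printed above, Hist1h2ac and Hist1h2bc, gave ratios of 0.252 and 1.07, and Hist1h2ao and Hist1h2bq gave 0.191 and 0.924. Hist1h2ak and Hist1h2bn, the pair with the lowest H2A ratio, gave 0.149 and 1.05, and Hist1h2ad and Hist1h2bf, with the lowest H2B ratio, gave 0.265 and 0.593. Pairs were chosen at most 500 bases apart, and those annotated on the same strand or with neither gene upstream of the other were left out. Both strands were annotated for 9 of the 11 pairs, and their opposite directions follow from that choice. Whether the counting used strand is unstated, so reads from transcripts that overlap on opposite strands may be counted for either gene.

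**Figure D3:**
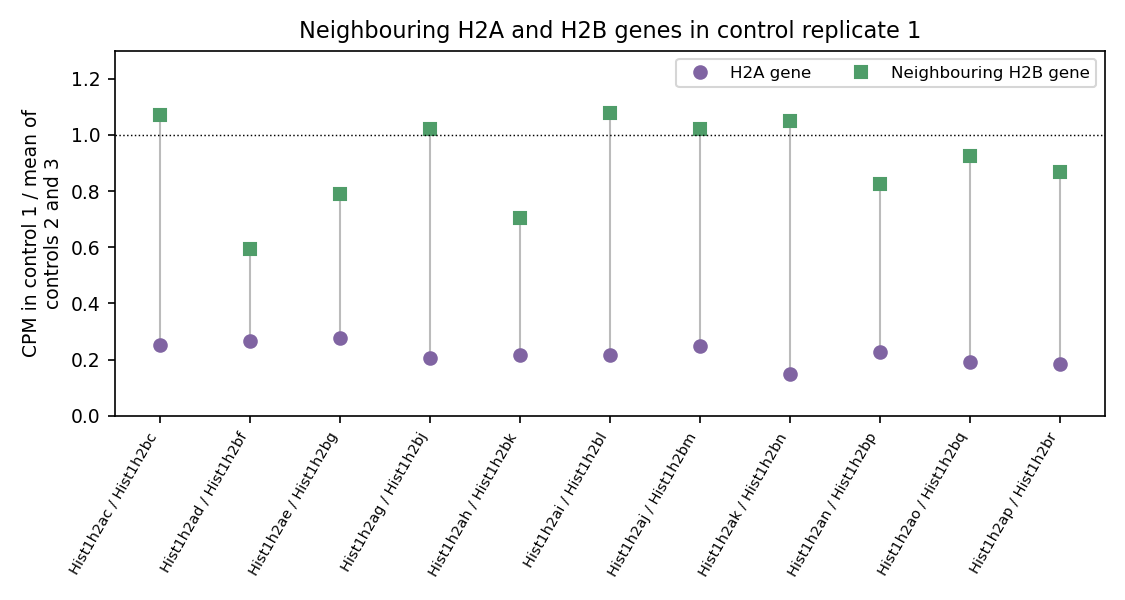
CPM in control replicate 1 divided by the mean of control replicates 2 and 3 (y axis; dotted line, equal levels) for the H2A gene (circles) and the neighbouring H2B gene (squares) of 11 pairs (x axis). Each circle lies at 0.277 or lower, and each square at 0.593 or higher.

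The authors' deposited table lists 59 of the members and calls 12 of them higher at FDR under 0.05 and 0 lower, where 3.24% of its 17483 genes are called higher and 3.9% lower. In the authors' deposited table these are 10 of 15 H2A genes, Hist1h1c and Hist1h2bc, with H2A log2 fold changes of 0.28 to 0.51 and FDRs of 4.04e-08 to 0.0453. Hist1h2ag, at 0.51, has an FDR of 4.04e-08 in the authors' deposited table against the adjusted p of 0.711 from the quasi-likelihood test. An edgeR exact test with 1 common dispersion for all genes, added after the data were seen, called 12 members higher, where 4.81% of all genes were called higher, and all 12 were those of the authors' deposited table. Limma-voom called 6 members higher, Hist1h1c, Hist1h2bc, Hist1h2ad, Hist1h2ag, Hist1h2ao and Hist1h2ap, where 4.28% of all genes were called higher. DESeq2 called 0 of the 41 higher, where 1.65% of 12578 genes were called higher, with 2 members at an unadjusted p under 0.05. It gave no adjusted p for Hist1h1d, Hist1h1e, Hist1h4f, Hist1h4m and Hist1h4n. None of these tests called a member lower.

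H2B genes showed small differences. Of 16 tested, 1 rose, 0 fell and 14 had a log2 fold change above or at 0, with a median of 0.13. Over all genes 4.61% rose, 5.17% fell and 50.2% were above 0, so 1 of 16 is near the background. Hist1h2bc, the H2B gene with the most reads, had 200, 219 and 195 reads in 4-OHT libraries against 170, 170 and 148 in control libraries. The groups did not overlap, at 34.7 ± 2.03 CPM after 4-OHT and 27.9 ± 2.18 CPM in controls (SD, n = 3 each), and the log2 fold change was 0.31 (SE 0.09, edgeR quasi-likelihood adjusted p = 0.0167). The call held without control replicate 1 (edgeR adjusted p = 0.0346) and was lost without 4-OHT replicate 2 (0.121), without control replicate 3 (0.141) and in DESeq2 (0.188). Hist2h2be, of the Hist2 cluster, had 68, 61 and 63 reads after 4-OHT and 59, 53 and 46 in controls, also without overlap (log2 fold change 0.26, edgeR adjusted p = 0.36). The lowest fold changes were those of Hist1h2bm, with 19, 20 and 11 reads after 4-OHT and 21, 16 and 25 in controls (log2 fold change -0.33), and of Hist1h2be, with 72, 89 and 61 against 70, 86 and 84 (log2 fold change -0.13). The remaining 12, Hist1h2ba, Hist1h2bb, Hist1h2bf, Hist1h2bg, Hist1h2bh, Hist1h2bj, Hist1h2bk, Hist1h2bl, Hist1h2bn, Hist1h2bp, Hist1h2bq and Hist1h2br, had overlapping groups and log2 fold changes between 0.0 and 0.35.

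Gene structure set several H2B genes apart. RefSeq gives a span of 1000 bases or more for 7 members, of which 6 were tested H2B genes: Hist1h2bc (8282 bases), Hist1h2be (37455), Hist2h2be (2667), Hist1h2br (3788), Hist1h2bq (3788) and Hist1h2bp (14079). The seventh was the H2A member Hist1h2al (2983). Such spans exceed a single histone coding exon, and Hist1h2bc, the called H2B gene, was among them. For 5 members, Hist1h2be, Hist1h2ba, Hist1h2aa, Hist3h2ba and Hist3h2a, another RefSeq gene overlaps the span. The H2B members that did not pass the filter had few reads in both groups: Hist2h2bb had 6, 10 and 4 reads after 4-OHT and 6, 4 and 6 in controls, Hist3h2ba had 5, 6 and 3 against 4, 5 and 4, and Hist3h2bb-ps had 4, 0 and 2 against 0, 2 and 2.

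H4 genes were tested on low counts and none was called. All 9 tested had log2 fold changes above 0, with a median of 0.43, and 4 reached an unadjusted p under 0.05, against 50.2% and 21.2% of all genes. That count of 4 was 0 without 4-OHT replicate 2 or without control replicate 2, 1 without 4-OHT replicate 3 or without control replicate 3, and 5 without control replicate 1. Reads may be split between H4 copies or counted for several of them, as for H2A, so the 9 may not be 9 separate measurements. Hist1h4i had 52, 59 and 59 reads in 4-OHT libraries against 54, 40 and 35 in control libraries, the high value of control replicate 1 closing the gap between groups (log2 fold change 0.38, SE 0.18, edgeR adjusted p = 0.19). Hist1h4f had 12, 19 and 14 reads after 4-OHT and 9, 5 and 11 in controls, the only tested H4 gene without overlap (log2 fold change 0.82, edgeR adjusted p = 0.161). Hist1h4a had 14, 25 and 24 reads after 4-OHT and 17, 10 and 12 in controls (log2 fold change 0.67, edgeR adjusted p = 0.177). Hist1h4j had 15, 27 and 24 against 20, 12 and 10 (log2 fold change 0.63, edgeR adjusted p = 0.202), and Hist1h4k had 21, 28 and 24 against 22, 15 and 14 (log2 fold change 0.50, edgeR adjusted p = 0.289). In each of these genes except Hist1h4f, control replicate 1 was the highest control, in contrast to the H2A genes.

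Control replicate 1 held H4 at 1.39 times the mean of control replicates 2 and 3, and the H4 sum ratio of 4-OHT over control was 1.33 with it and 1.5 without it. Without it, Hist1h4i had a log2 fold change of 0.58 (edgeR adjusted p = 0.0716) and Hist1h4j of 0.97 (edgeR adjusted p = 0.092), still short of the threshold. These were the highest values over the libraries left out in turn. The lowest were 0.25 for Hist1h4i and 0.44 for Hist1h4j, and without control replicate 3 their edgeR adjusted p-values were 0.538 and 0.53. Without control replicate 3, 7 of 10 tested H4 genes were above 0, and without 4-OHT replicate 2, 7 of 9. Hist1h4c, Hist1h4h, Hist1h4m and Hist1h4n had log2 fold changes of 0.43, 0.06, 0.17 and 0.06 with overlapping groups. Hist1h4d, just outside the filter, had 10, 12 and 11 reads after 4-OHT and 9, 5 and 7 in controls. Hist2h4 had 0, 1 and 0 reads against 1, 2 and 3, and Hist4h4 had 3, 0 and 0 against 1, 0 and 0.

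H3 was the class with fewer reads after 4-OHT. The 12 genes summed to 109 reads in 4-OHT libraries and 177 in control libraries, at 4.07, 7.25 and 7.13 CPM against 10.6, 10.6 and 9.08 CPM, a ratio of 0.608. No H3 gene passed the filter, so no adjusted p from the main test exists for any of them. Of the 10 with reads, 9 had fewer summed reads after 4-OHT, where 40.3% of the 3376 genes that did not pass the filter but had at least 10 reads did so. None of the 10 had all 3 of the 4-OHT libraries below all controls in reads, where 2.84% of those genes did, several H3 genes having tied counts in the 2 groups. In CPM, the measure used above for the tested members, where small differences in library size split such ties, 5 of the 10 lay wholly below, against 7.73% of those genes. Every control library had a smaller scaled total than every 4-OHT library, so each tied count became a lower CPM in the 4-OHT library. The 5 were Hist1h3b, Hist1h3c, Hist1h3f, Hist1h3h and Hist1h3i, and in each the highest 4-OHT count tied with the lowest control count. A fit without the filter gave a median log2 fold change of -0.72 for the 10, with 9 below 0 and a lowest edgeR adjusted p of 0.318. Reads may be split between H3 copies or counted for several of them, as for H2A, so the 10 may not be 10 separate measurements.

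Hist2h3c2, the H3 gene with the most reads, had 7, 7 and 4 reads in 4-OHT libraries against 6, 13 and 10 in control libraries. Hist1h3d had 1, 6 and 8 reads after 4-OHT and 7, 7 and 5 in controls. The genes named next were picked after their values were seen. Hist1h3c had 2, 4 and 4 reads against 10, 4 and 8, Hist1h3a had 1, 1 and 3 against 5, 6 and 2, and Hist1h3g, the exception to the direction, had 4, 6 and 4 against 5, 4 and 4. Single counts of this size lie close to the 3-read limit, and the difference of any 1 H3 gene was not detectable at this depth. The lower H3 sum and the higher H1 sum stood in the same libraries, with no test of either sum. Most reads of the H1 sum were those of Hist1h1c.

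**Figure D4:**
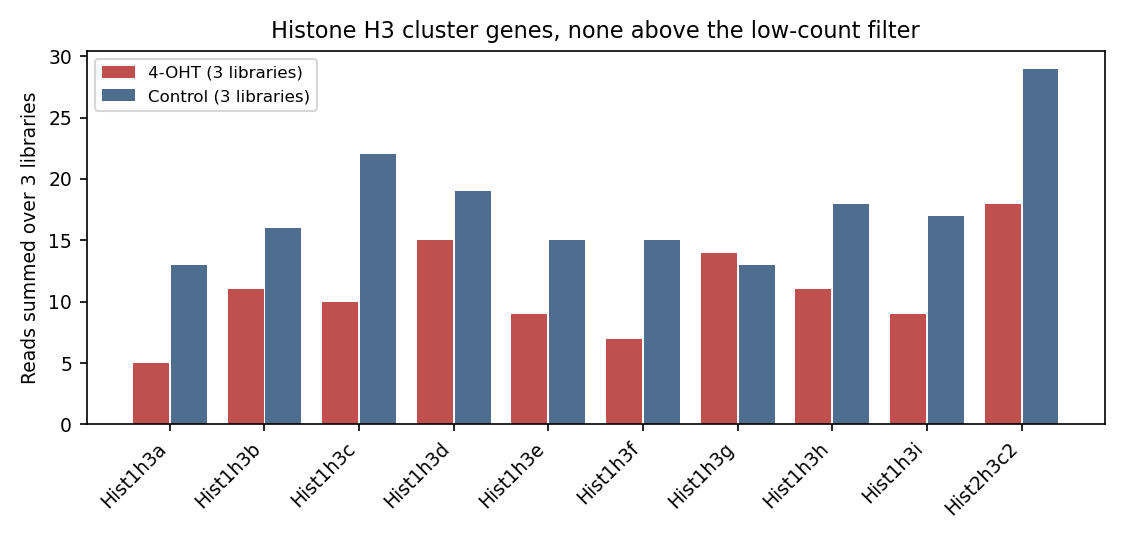
Reads summed over 3 libraries (y axis) for the 10 H3 genes with any read (x axis), 4-OHT in red and control in blue. The 4-OHT bar is the lower one for 9 genes and the higher one for Hist1h3g, and no bar reaches 30 reads.

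Genes that make, process and place histones were read from the same fit. Of 28 genes for histone mRNA transcription, end processing and decay, 27 were tested, 0 were called higher and 1 lower, with a median log2 fold change of -0.05. Over all genes 4.61% were called higher and 5.17% lower, so 1 of 27 is no more than the background. Slbp, the stem-loop binding protein, had 435, 493 and 491 reads in 4-OHT libraries and 458, 467 and 463 in control libraries, at 80.1 ± 5.48 and 79.3 ± 0.903 CPM (SD, n = 3 each; log2 fold change 0.01, edgeR adjusted p = 0.935). Npat, the coactivator of histone genes in S phase, stood at 51.9 ± 4.92 CPM after 4-OHT and 52.7 ± 2.27 CPM in controls (SD, n = 3 each; edgeR adjusted p = 0.92). Casp8ap2, which encodes FLASH, stood at 61.6 ± 2.89 and 56.6 ± 4.01 CPM (SD, n = 3 each; edgeR adjusted p = 0.307). The gene called lower was Ccne1, the cyclin E1 that acts with CDK2 on NPAT, with 87, 86 and 86 reads after 4-OHT and 112, 118 and 116 in controls. Ccne1 fell by 0.44 on the log2 scale (SE 0.12, edgeR adjusted p = 0.00993), a call that DESeq2 did not make (adjusted p = 0.131).

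Of 26 histone chaperone and deposition genes, 25 were tested, 6 fell (5.17% of all genes) and 0 rose (4.61% of all genes), with a median log2 fold change of -0.04. Anp32e, which removes H2A.Z from chromatin, had 963, 870 and 983 reads after 4-OHT and 1171, 1215 and 1170 in controls, and fell by 0.35 on the log2 scale (SE 0.04, edgeR adjusted p = 6.2e-10). The other 5 were Cabin1 of the HIRA complex, Hjurp, the chaperone of CENP-A, the replicative helicase subunit Mcm2, Nasp, a chaperone of soluble H3 and H4, and Nap1l1, a chaperone of H2A and H2B. They fell by 0.22, 0.19, 0.18, 0.17 and 0.16 in that order. Nasp was not called without control replicate 1 (edgeR adjusted p = 0.0917), without control replicate 3 (0.151), without 4-OHT replicate 3 (0.0847) or in DESeq2 (0.185), and Cabin1 was not called in DESeq2 (0.0791). Asf1a is listed with 0 reads in all libraries.

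Of 11 histone variant genes outside the clusters, whose mRNAs are mostly polyadenylated, 10 were tested, 3 fell (5.17% of all genes) and 0 rose (4.61% of all genes), with a median log2 fold change of -0.11. Cenpa, the centromeric H3 variant, had 241, 205 and 236 reads in 4-OHT libraries against 594, 588 and 583 in control libraries and fell by 1.39 (SE 0.07, edgeR adjusted p = 6.45e-32). H2afx, the H2A variant phosphorylated at DNA breaks, had 259, 291 and 298 reads against 366, 444 and 475 and fell by 0.62 (SE 0.07, edgeR adjusted p = 4.55e-09). Control replicate 1 was the lowest control for H2afx, at 62.6 CPM against 76.2 and 81.4, and without it H2afx fell by 0.72. Among the controls, the other H2A variants H2afj, H2afv and H2afy were highest in control replicate 1, and H2afz was lowest there. H2afz, which encodes H2A.Z, fell by 0.13 (SE 0.04, edgeR adjusted p = 0.0195), a call lost in DESeq2, without 4-OHT replicate 2 and without control replicate 3. The replacement H3 genes H3f3a and H3f3b, at 70.9 ± 1.18 and 437 ± 9.68 CPM after 4-OHT and at 72.1 ± 2.39 and 429 ± 11.7 CPM in controls (SD, n = 3 each), had log2 fold changes of -0.02 and 0.03, and neither passed the test (edgeR adjusted p = 0.89 and 0.716). The linker variant H1f0 stood at 138 ± 8.12 and 138 ± 6.40 CPM (SD, n = 3 each).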

How the data were processed

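RNA of 6 KPL libraries was measured, 3 of 4-OHT and 3 of control cells, grouped by the sample labels. Per the labels' protocols, total RNA was isolated with a DNase step, and libraries were made from poly(A) RNA with an NEBNext Ultra kit. The deposited count matrix gives raw counts, in whole reads, for each Ensembl gene. The authors' deposited table holds log2 fold changes of 4-OHT over control with p-values and FDRs, per the file headers. The submitters' processing notes name edgeR, bedtools 2.26.0, TopHat2 2.1.0, Bowtie2, Bowtie 1.1.2, GRCm38.p6, mm10, hg19 and GRCh37. The counter, its use of strand, its treatment of reads that map to several copies and the settings of the authors' test are unstated there.

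Of 38951 matrix lines, 27 repeats of an ID with the same counts (0.109% of reads) were dropped. The low-count filter was filterByExpr (minimum count 10, minimum total 15). After TMM scaling, 4-OHT was set against control in the robust quasi-likelihood test of edgeR 4.0.16 in R 4.3.3, two-sided, with Benjamini-Hochberg adjustment over all 13355 genes and a threshold of 0.05. The biological coefficient of variation was 2.58%, from a common dispersion of 0.000663. CPM uses TMM-scaled totals. Library totals were 5894309, 5913942 and 5904473 reads after 4-OHT and 5871665, 5876193 and 5859826 in controls. Sums over classes and medians over members were described without a test. The fit was tested on simulated counts. The alternatives were other scalings, no filter, another filter (at least 1 CPM in 3 libraries, which kept 14444 genes), DESeq2 1.42.0, limma-voom (limma 3.58.1), a replicate block and leaving out each library, and 2 edgeR tests were added after the data were seen.

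The members, the pathway lists and the genes named by rule were chosen with earlier results of these data known. The rule named every member that passed the filter, the 2 members of each class with the most reads among those that did not, every list gene called at adjusted p under 0.05, and Lin9, Slbp, Npat and Casp8ap2. Coordinates, spans and promoter sequences are those of RefSeq (GRCm38.p6), in which all 70 members were matched. The printed windows were shortened where they would have entered another RefSeq gene, while the motif counts used the full 250 bases.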

Additional observations from a re-analysis of the deposited data

How the results depend on the processing

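Over all genes, 616 were called higher and 691 lower, against 208 and 362 with DESeq2. Leaving out 1 library gave 403 to 542 calls higher and 508 to 643 lower, the fewest without control replicate 1. The 2 histone genes called higher became 0 with DESeq2, 6 with limma-voom and 12 with the edgeR exact test with 1 common dispersion, and 1 to 2 when a library was left out. The other settings, the quasi-likelihood test without robust estimation included, called 2. Ccne1, the 1 gene called lower in the list for histone mRNA transcription and processing, became 0 genes with DESeq2, and leaving out a library gave 1 to 2. The members' median log2 fold change of 0.31 was 0.19 without the low-count filter and 0.07 to 0.39 with a library left out, lowest without control replicate 1. The H1 median of 0.38 was 0.18 without the filter, which added 3 genes of few reads. Why the settings differ was otherwise not tested. For single named genes, 770 of the alternative values stayed on the same side of the threshold in the same direction or within the replicate spread, 14 newly passed it, 14 no longer did, 27 moved and no called value reversed. With library totals alone or DESeq2's size factors in edgeR, 38 of 41 members stayed above 0.

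Samples with the same replicate number did not deviate together (correlations of -0.026 to 0.01), so the numbers were not taken as pairs. With the replicate number as a block, 579 genes were called higher and 665 lower, and 2 histone genes were called higher, Hist1h1c (edgeR adjusted p = 0.00843) and Hist1h2bc (edgeR adjusted p = 0.0185).

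Depth limits the low members, as a count of 0 in a library allows up to 3 reads. The 12 H3 genes together gave 24 to 62 reads per library, and none of them passed the main filter. Settings that let H3 genes in gave no call. At 1 CPM in 3 libraries 2 were tested (lowest edgeR adjusted p = 0.403), and without the filter 10 (0.318). Leaving out 4-OHT replicate 1, 2 or 3 let in 1 gene each time (edgeR adjusted p = 0.423, 0.425 and 0.661). So did leaving out control replicate 1 (0.266), where its unadjusted p was under 0.05, as was that of 1 gene without the filter.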

Other observations

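A gene outside the Hist symbols followed the H2A genes. Gm11336, a predicted gene noticed after the values were seen, had 101, 145 and 113 reads in 4-OHT libraries against 25, 99 and 150 in control libraries, and stood at -2.08 in the ranking of control replicate 1 over the other controls, among the 13 H2A genes. All members except H2A together had 1240, 1464 and 1276 reads after 4-OHT and 1130, 1184 and 1132 in controls. Over the genes that reached a minimum of summed reads, the chi-square per degree of freedom of read counts was 1.23 and 1.28 between control replicate 1 and the other controls. It was 1.29 between control replicates 2 and 3.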
